A study of Mus musculus with 16 samples.

Results

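The release and refilling of the intracellular calcium store was followed through 10 genes in the hippocampus of mice fed pioglitazone (PIO). The rule names them by their symbols and uses no measured value: the ryanodine receptor genes Ryr2 and Ryr3, the immunophilin genes Fkbp1a and Fkbp1b, the inositol trisphosphate (IP3) receptor genes Itpr1 and Itpr2, the store pump gene Atp2a2, and the store-operated entry genes Stim1, Stim2 and Orai2. The genes were still chosen with earlier results of these data known. A probe set, the group of array probes that reads one transcript region, was taken where the platform annotation gave a member as its only gene symbol. That gave 29 probe sets for 9 of the 10 genes, out of 12266 genes tested in all; Itpr1 was not analysed here. All 16 animals were female 3xTg-AD mice aged 14 months, an Alzheimer's disease model with transgenes for mutant human APP and tau and a knock-in of mutant presenilin 1, so the control animals carried the disease alleles too. From 10 months of age and for about 14 weeks, 8 of them ate a control diet and 8 ate a diet with PIO at 84 ppm, a daily dose near 18 mg/kg. PIO is a thiazolidinedione, an agonist of the nuclear receptor PPAR gamma. Whole hippocampal RNA was read on 1 Affymetrix array per animal, and there was no wild-type group, so nothing here compares diseased with healthy tissue.

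Neurons keep a calcium store in the endoplasmic reticulum. Ryanodine and IP3 receptors are the channels that let this calcium out, ryanodine receptors in answer to calcium itself and IP3 receptors in answer to signals from surface receptors. Small FKBP immunophilins bind ryanodine receptors and hold the channel closed at rest. The pump encoded by Atp2a2 refills the store, and STIM proteins sense its calcium level and open ORAI channels at the cell surface when it runs low. Raised release through ryanodine receptors is a known feature of neurons from presenilin-mutant mice, and loss of Fkbp1b is a known feature of hippocampal ageing.

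The arrays had medians of 5.65 to 5.76 log2 units and correlated pairwise with r of 0.994 to 0.998. Markers of hippocampal neurons were present, with 8 of 8 neuronal and 8 of 8 subfield markers above the filter on low values (3.58 log2 units, the 40th percentile of probe set means). The samples differed in markers of neighbouring regions. The mean of 10 choroid plexus markers ran from -3.25 to 2.50 in controls and from -3.61 to 2.68 with PIO, as log2 units around the mean of all arrays. PIO animals 14 and 15 had the highest means of 6 striatal markers (0.69 and 0.85, against -0.31 to 0.36 in controls) and the lowest means of the 8 subfield markers (-0.44 and -0.53, against -0.13 to 0.17 in controls). PIO animal 16 had the highest mean of 7 thalamic markers, at 1.53. In whole tissue, fewer cells of a type and less RNA per cell cannot be told apart.

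None of the 9 measured members passed the test of PIO against control. Over all 12266 genes, limma with Benjamini-Hochberg adjustment called 0 genes (0.00%) at an adjusted p under 0.05, and a plain two-sample test called 0 as well. An unadjusted p under 0.05 was found for 859 genes (7.00%), with 473 (3.86%) higher and 386 (3.15%) lower with PIO. Of the members, 2 of 9 were under 0.05 unadjusted, Ryr2 and Fkbp1b, both lower. Of the 9 members, 8 had a lower mean in PIO animals. The median of the 9 log2 differences was -0.068, where 47.3% of all genes tested had a lower mean and the median was 0.0045. These 9 genes were not independent: 11 of 36 pairs of them had an adjusted permutation p under 0.05 for r between animals. They were also chosen with earlier results of these data known, so these counts are no test of the list. Leaving out both PIO animals with the highest striatal means was decided with the values known. Fkbp1a (0.0055), Itpr2 (0.015), Stim2 (0.090) and Orai2 (0.0078) were then higher with PIO, as was Stim1 (0.053). Ryr2 (-0.13), Ryr3 (-0.068), Fkbp1b (-0.10) and Atp2a2 (-0.044) stayed lower. No member had all PIO animals outside the control range, which 4 genes (0.0326%) had over the whole table.

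**Figure D1:**
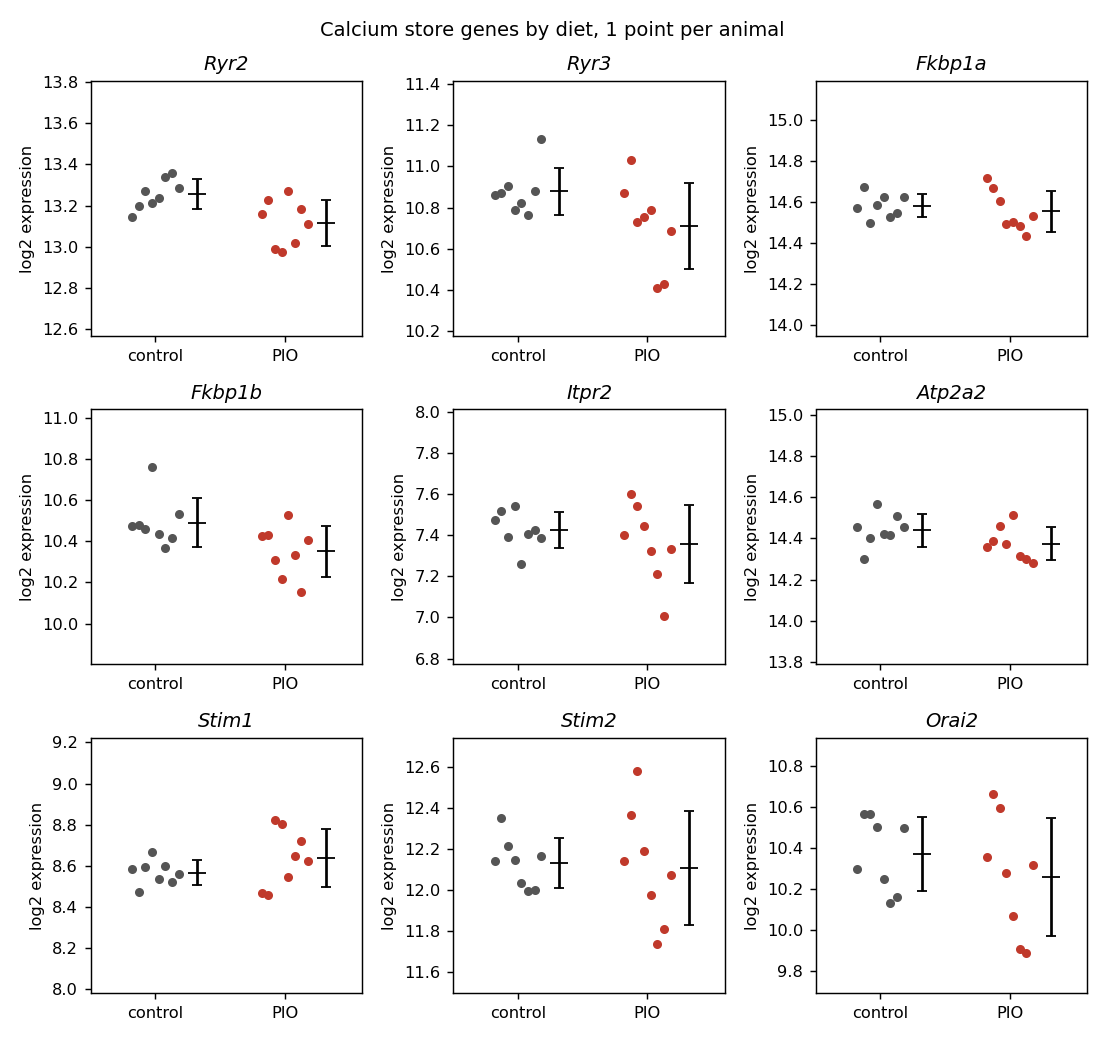
Log2 expression (vertical axes, of the same height in log2 units in every panel) of the 9 measured calcium store genes in control and PIO animals, 1 point per animal, from the probe set that stands for each gene; the bar beside each group is its mean and SD (n = 8 each). The groups overlap in every panel. The PIO SD is larger than the control SD for each gene, though only slightly for Fkbp1b and Atp2a2.

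Ryr2 encodes the ryanodine receptor best known from heart and the main one of many brain regions. It had the smallest p among the members. On its brighter probe set, 1450123_at, control animals ran from 13.14 to 13.36 with a median of 13.25, and PIO animals from 12.97 to 13.27 with a median of 13.14. The groups overlapped, and 4 of 8 PIO animals lay below the lowest control. The means were 13.26 ± 0.073 and 13.12 ± 0.11 log2 units (SD, n = 8 each). The log2 difference was -0.14 (SE 0.049, 95% interval -0.24 to -0.036), a level 0.908 times that of controls. Its exact permutation p was 0.0112 and its limma adjusted p over all genes was 0.664. PIO animals 11, 12 and 14 were the lowest, at 12.99, 12.97 and 13.02. With PIO animals 14 and 15 both left out the difference was -0.13, and in arrays of the most frequent description code it was -0.13 (SE 0.066), with the unadjusted p no longer under 0.05. The description code is the string that ends each array's description. In arrays numbered 1 to 6 the Ryr2 means were 13.21 in 4 control and 13.19 in 2 PIO animals, and in arrays numbered 10 to 24 the difference was -0.22 (SE 0.066, limma adjusted p = 0.563).

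The second Ryr2 probe set did not follow the first. On 1421126_at, controls ran from 7.43 to 8.08 with a median of 7.66, and PIO animals from 6.90 to 9.38 with a median of 7.55. The difference was 0.03 (SE 0.28), with a limma adjusted p over all 45037 probe sets of 1.00. PIO animals 11 and 12, the lowest on the first probe set, were the highest on this one, at 9.38 and 8.42. After the group means were taken off, the 2 probe sets correlated over the 16 arrays with r = -0.35 and rho = -0.20 (permutation p = 0.183 and 0.455), and r was -0.21 without PIO animals 12 and 13. The mean of both probe sets differed by -0.056 (SE 0.13) between the diets, so the lower Ryr2 value was seen on 1 of 2 probe sets.

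Ryr3 encodes the ryanodine receptor that is scarcer in most tissues and is found in hippocampus. On the probe set that stands for it, 1427427_at, controls ran from 10.77 to 11.14 with a median of 10.86, and PIO animals from 10.41 to 11.03 with a median of 10.74. Of the PIO animals, 5 of 8 lay below the lowest control, with animals 14 and 15 the lowest at 10.41 and 10.43. The log2 difference was -0.17 (SE 0.081), with a 95% interval of -0.34 to 0.01, an exact permutation p of 0.0755 and a limma adjusted p of 0.723. Leaving out PIO animals 14 and 15 was decided with the values known, and gave -0.068 (SE 0.064). With the subfield list mean as a covariate it was -0.077 (SE 0.056), and in arrays of the most frequent description code it was -0.081 (SE 0.090). In arrays numbered 1 to 6 the Ryr3 mean was higher with PIO (10.95, n = 2, against 10.86, n = 4), and in arrays numbered 10 to 24 the difference was -0.27 (SE 0.10, limma adjusted p = 0.613).

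All 3 Ryr3 probe sets had a lower mean with PIO, and their average differed by -0.29 (SE 0.11, limma adjusted p = 0.623). On each of the 3, PIO animals 14 and 15 were the lowest of the 16 arrays. The difference without both animals was computed for 1427427_at only, so their part in the other differences and in the average was not tested. The widest gap was on 1432133_at, where controls ran from 6.58 to 7.30 with a median of 6.73 and PIO animals from 5.67 to 7.46 with a median of 6.31. Here 7 of 8 PIO animals lay below the lowest control (6.583), and PIO animal 11 lay above the highest one. PIO animals 9 and 12 were only just below the lowest control, at 6.582 and 6.560. The difference was -0.56 (SE 0.23), with an exact permutation p of 0.0319 and a limma adjusted p over all probe sets of 0.922. PIO animals 14 and 15 were the lowest of the 16 arrays, both at 5.67, and PIO animal 16 was next. On the third, 1452533_at, the difference was -0.13 (SE 0.099). That probe set tracked 1427427_at closely between animals (r = 0.87, rho = 0.85, permutation p = 5e-05 and 6e-05), and r was 0.80 without PIO animals 10 and 14. The relation of 1432133_at to 1427427_at was weaker, at r = 0.37 and rho = 0.44 (permutation p = 0.155 and 0.0888).

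**Figure D2:**
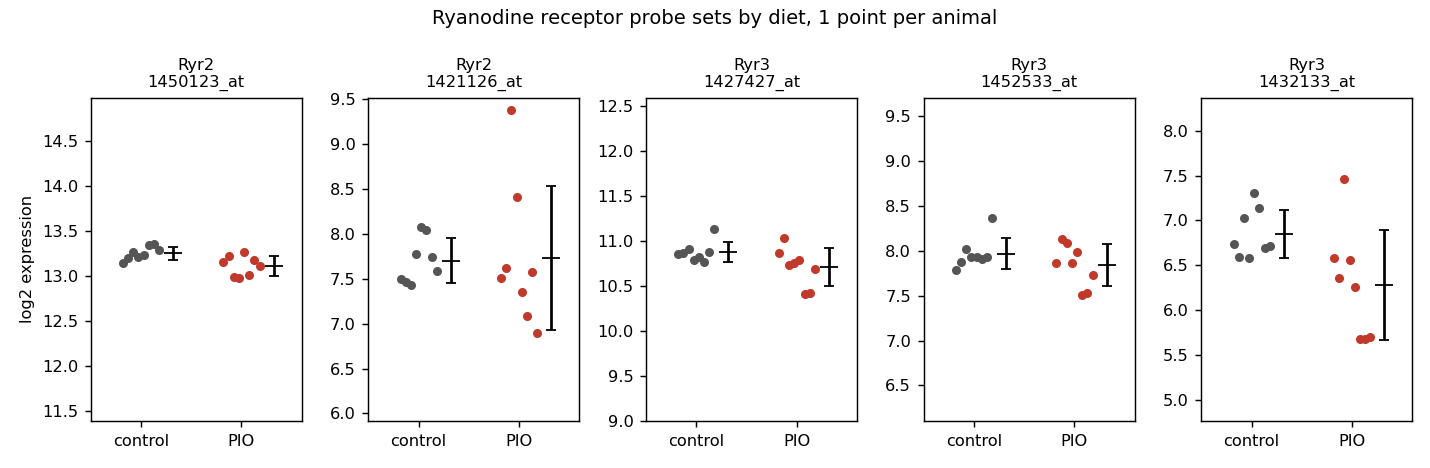
Log2 expression (vertical axes, of the same height in log2 units in every panel) of the 2 Ryr2 and 3 Ryr3 probe sets in control and PIO animals, 1 point per animal, with the mean and SD of each group beside it (n = 8 each). The second Ryr2 probe set has 1 PIO animal at 9.38 and 1 at 8.42 above all controls, and in all 3 Ryr3 panels the PIO mean lies below the control mean.

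Fkbp1b encodes the immunophilin that binds Ryr2 protein with high affinity and stabilises its closed state. It was read by a single probe set, 1449429_at. Controls ran from 10.37 to 10.76 with a median of 10.47, and PIO animals from 10.15 to 10.53 with a median of 10.37. The groups overlapped, with 4 of 8 PIO animals below the lowest control. The means were 10.49 ± 0.12 and 10.35 ± 0.12 (SD, n = 8 each). The difference was -0.14 (SE 0.060), a level 0.907 times that of controls with a 95% interval of 0.831 to 0.991. The exact permutation p was 0.0303 and the limma adjusted p was 0.681. Control animal 4 was the highest at 10.76, with the next control at 10.53, and the difference was -0.10 (SE 0.051) without it. The unadjusted p was also no longer under 0.05 without control animal 8 (-0.13) or without PIO animal 11 (-0.13), 12 (-0.12) or 15 (-0.11), each taken out alone. In arrays of the most frequent description code the difference was -0.069 (SE 0.056), with the unadjusted p no longer under 0.05.

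Fkbp1a encodes the closely related and more widely expressed immunophilin that binds all ryanodine receptors and is the target of the drug FK506. Its values varied little. On 1456196_x_at, controls ran from 14.50 to 14.67 with a median of 14.58 and PIO animals from 14.43 to 14.72 with a median of 14.51. The difference was -0.026 (SE 0.043), and the 95% interval of the ratio was 0.921 to 1.05. The _x_at suffix marks probes that can also bind other transcripts. Of 4 probe sets above the filter, 2 had a lower and 2 a higher mean with PIO, with differences from -0.048 to 0.014. The 2 probe sets without that suffix, 1448184_at and 1416036_at, both differed by 0.01. One more, 1438795_x_at, was below the filter at a mean of 2.49.

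The IP3 receptor gene Itpr2 encodes a channel that in brain is best known from astrocytes. On 1424834_s_at, controls ran from 7.26 to 7.54 with a median of 7.42 and PIO animals from 7.00 to 7.60 with a median of 7.37. The difference was -0.068 (SE 0.072), with an exact permutation p of 0.389 and a limma adjusted p of 0.874. PIO animals 15 and 14 were the lowest at 7.00 and 7.21, and without both the difference was 0.015. The mean of 7 astrocyte markers ran from -0.059 to 0.19 in controls and from -0.29 to 0.043 with PIO, and all 7 had a lower mean with PIO. Their correlation with Itpr2 between animals is given below, and their part in its difference between the diets was not tested. Of its 6 probe sets, 3 were above the filter, all with a lower mean with PIO (differences of -0.12 to -0.068), and 3 were below it with means of 2.03 to 2.53. The probe set 1424833_at followed the first (r = 0.69, rho = 0.53, permutation p = 0.00528 and 0.0396), and 1427287_s_at did so less (r = 0.15, rho = 0.16, permutation p = 0.586 and 0.556).

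Atp2a2 encodes SERCA, the pump that returns calcium to the store. On 1416551_at, controls ran from 14.30 to 14.57 with a median of 14.44 and PIO animals from 14.28 to 14.52 with a median of 14.37. The difference was -0.066 (SE 0.043), with a 95% interval of the ratio of 0.897 to 1.02, an exact permutation p of 0.122 and a limma adjusted p of 0.789. It was the best covered member, with 6 probe sets, all above the filter. Of these, 5 had a lower mean with PIO and 1 a higher one, with differences from -0.067 to 0.025. The brighter ones agreed between animals: 1427250_at followed 1416551_at with r = 0.91 and rho = 0.88 (permutation p = 1e-05, the smallest 100000 resamples can give, and 2e-05), and 1452363_a_at with r = 0.89 and rho = 0.85 (permutation p = 1e-05 and 5e-05). The dimmest 2, 1437797_at and 1443551_at, had r of 0.14 each (permutation p = 0.613 and 0.603) and rho of 0.23 and 0.14 (permutation p = 0.388 and 0.615). In arrays of the most frequent description code the Atp2a2 difference was 0.0038.

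**Figure D3:**
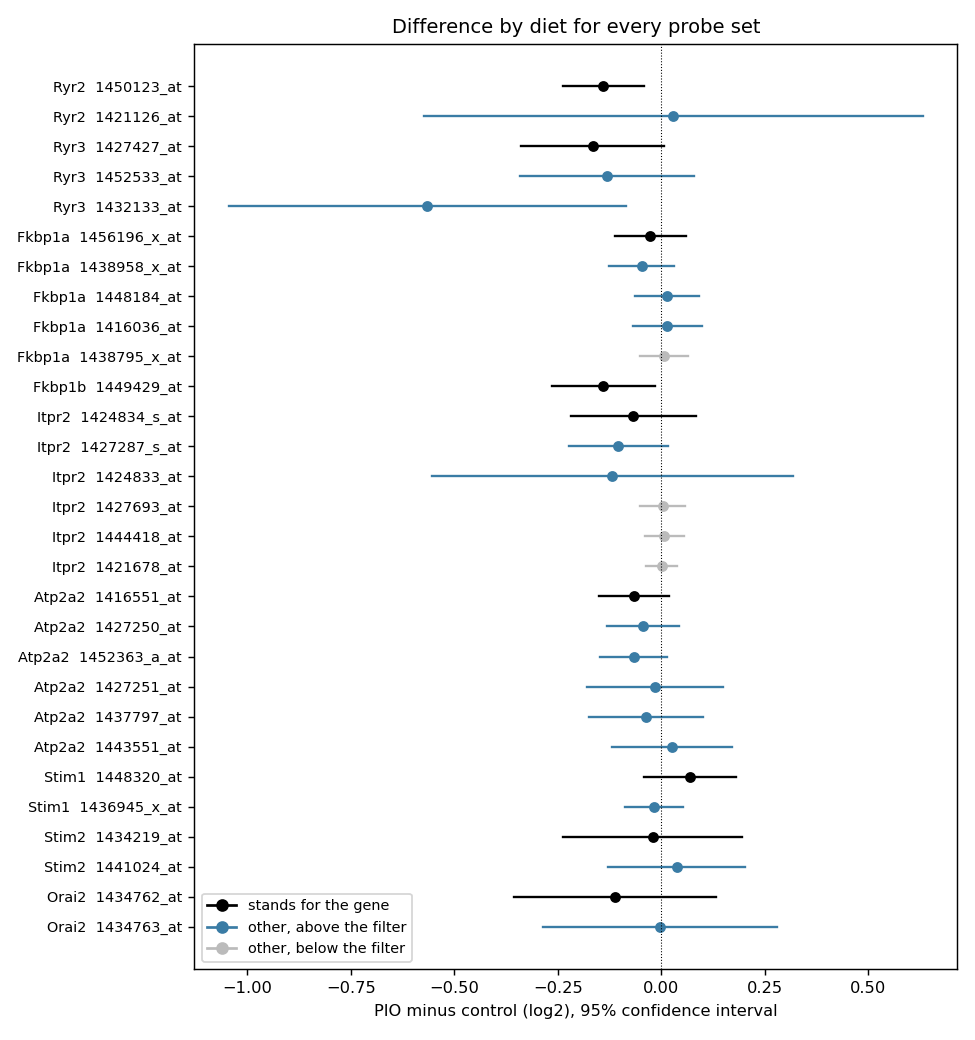
Difference between the diets (horizontal axis, PIO minus control in log2 units) for all 29 probe sets of the 9 measured genes, each with its 95% confidence interval from limma over all 45037 probe sets; black marks the probe set that stands for its gene, blue the others above the filter on low values and grey those below it. Intervals of 3 probe sets, 1 each of Ryr2, Ryr3 and Fkbp1b, lie wholly below 0, and none lies wholly above it.

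Over all 29 probe sets of the members, 3 had an unadjusted p under 0.05 in limma, all lower with PIO, against 2367 of 45037 probe sets (5.26%) in the whole table and 1184 (2.63%) in the lower direction. In no member did all PIO animals lie beyond the control range, as they did for 8 probe sets (0.0178%) of the whole table. No probe set of any gene had an adjusted p under 0.05 (0.00%). Within genes, each further probe set above the filter was compared with the one that stands for its gene. Of 16 such pairs, 10 had the same direction of difference, 15 had r above 0, and 9 had r over 0.5 with a Benjamini-Hochberg adjusted permutation p under 0.05 over the 16 pairs. Both Orai2 probe sets agreed best between animals, at r = 0.96 and rho = 0.97 (permutation p = 1e-05 for each).

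The STIM proteins are the calcium sensors of the store. Stim1 was the only one of the 9 genes with a higher mean with PIO. On 1448320_at, controls ran from 8.47 to 8.67 with a median of 8.57 and PIO animals from 8.46 to 8.82 with a median of 8.64. The PIO animals spread to both sides, with 3 of 8 above the highest control and 2 of 8 below the lowest. The difference was 0.07 (SE 0.055), with an exact permutation p of 0.223 and a limma adjusted p of 0.821. It was 0.042 without PIO animal 11. In arrays numbered 1 to 6 the mean was lower with PIO (8.46, n = 2, against 8.58, n = 4), and in arrays numbered 10 to 24 the difference was 0.14 (SE 0.061, limma adjusted p = 0.640). PIO animals 11 and 12 were the highest at 8.82 and 8.80, the same animals that were lowest for the brighter Ryr2 probe set. After the group means were taken off, Stim1 and Ryr2 had r = -0.60 and rho = -0.54 (permutation p = 0.0133 and 0.0319; adjusted 0.0477 and 0.127 over the 36 pairs of members), and r was -0.48 without PIO animals 12 and 13. The second Stim1 probe set, 1436945_x_at, differed by -0.02 (SE 0.033) and did not follow the first (r = 0.052, rho = -0.047, permutation p = 0.843 and 0.866).

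Stim2, the STIM protein that answers to small losses of store calcium and prevails in hippocampal neurons, differed little in its mean but spread widely. On 1434219_at, controls ran from 11.99 to 12.35 with a median of 12.14 and PIO animals from 11.74 to 12.58 with a median of 12.11. The difference was -0.02 (SE 0.10), with a limma adjusted p of 0.978 and a 95% interval of the ratio of 0.85 to 1.14. PIO animal 11 was the highest of all 16 arrays and PIO animal 14 the lowest. The second probe set, 1441024_at, differed in the other direction, by 0.037 (SE 0.078). It followed the first between animals (r = 0.70, rho = 0.84, permutation p = 0.00355 and 5e-05).

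Orai2 encodes a pore-forming subunit of the store-operated channel and is the ORAI gene best known from brain. On 1434762_at, controls ran from 10.13 to 10.57 with a median of 10.40 and PIO animals from 9.89 to 10.66 with a median of 10.30. The difference was -0.11 (SE 0.11), with an exact permutation p of 0.361, a limma adjusted p of 0.869 and a 95% interval of the ratio of 0.784 to 1.09. PIO animals 15 and 14 were the lowest at 9.89 and 9.91, and without both the difference was 0.0078. On the second probe set, 1434763_at, the difference between the diets was -0.0028 (SE 0.13). Orai2 also differed by the array number in each label, short of the threshold. With diet in the model, arrays numbered 1 to 6 lay 0.27 (SE 0.10) above arrays numbered 10 to 24, with a limma adjusted p of 0.410. The controls stood at 10.48 ± 0.13 in the 4 lower-numbered and 10.26 ± 0.17 in the 4 higher-numbered arrays (SD). With the number range as a block, the difference between the diets was -0.045 for Orai2 (SE 0.10) and -0.031 for Itpr2 (SE 0.067). The labels do not say what this number stands for.

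Stim2 and Orai2, sensor and channel of the same entry pathway, varied together from animal to animal. With the group means taken off, r was 0.92 and rho 0.94 over the 16 arrays (permutation p = 1e-05 for each, the smallest 100000 resamples can give; adjusted 3.6e-04 for each over 36 pairs). Without PIO animals 11 and 14, those farthest from the median, r was 0.93, and in the 11 arrays of the most frequent description code it was 0.93. It was the only 1 of 36 pairs of members with an adjusted p under 0.05 for both measures, while 11 pairs passed for r alone. Next came Itpr2 with Stim2 (r = 0.81, rho = 0.71, permutation p = 1.9e-04 and 0.00287; adjusted 0.00228 and 0.0517) and Itpr2 with Orai2 (r = 0.79, rho = 0.68, permutation p = 1.5e-04 and 0.00547; adjusted 0.00228 and 0.0639). Ryr3 with Orai2 had r = 0.71 and rho = 0.60 (permutation p = 0.00174 and 0.0161; adjusted 0.0157 and 0.0868), and r was 0.51 without PIO animals 10 and 14. Ryr2 had r with Ryr3 of 0.29 and with Fkbp1b, its partner protein, of 0.17 (rho of 0.26 and 0.20, permutation p = 0.285 and 0.545 for r, 0.334 and 0.459 for rho).

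The same genes were correlated with markers of hippocampal subfields and of glia. Relations of the 9 members to all 9 marker lists were computed, 81 in all, and 18 passed an adjusted p of 0.05 for r and 7 for both measures. The subfield list holds Prox1 of dentate granule cells, Wfs1, Spink8 and Fibcd1 of CA1, Neurod6 and Bcl11b of pyramidal and other projection neurons, Grik4 of CA3 and the mineralocorticoid receptor gene Nr3c2. Of the 8, 7 had a lower mean with PIO. With the group means taken off, the list mean had r of 0.89 with Stim2, 0.88 with Orai2, 0.90 with Itpr2 and 0.80 with Ryr3, and rho of 0.89, 0.85, 0.79 and 0.72 (permutation p at most 4.3e-04 for r and 0.00183 for rho; adjusted over the 81 relations at most 0.00702 and 0.0247). Without PIO animals 14 and 15, r was 0.85, 0.84, 0.81 and 0.57 in the same order. Fkbp1a had r of 0.62 and rho of 0.63 (permutation p = 0.0103 and 0.0116; adjusted 0.0464 and 0.0781), and r was 0.44 without those animals. Atp2a2 had r and rho of 0.41 (permutation p = 0.119 and 0.115). Ryr2 and Stim1 had r of -0.10 and -0.12 with this list (permutation p = 0.715 and 0.672; rho of -0.24 and -0.026 with permutation p = 0.380 and 0.924), and Fkbp1b had r of 0.47 and rho of 0.41 (permutation p = 0.0694 and 0.120). Taken one by one, 7 of the 8 markers had r above 0 with Stim2, from 0.57 to 0.91 for these 7. The exception was Wfs1, with r of -0.28 for Stim2 and Itpr2, -0.50 for Orai2 and -0.68 for Ryr3. For the astrocyte list, r was 0.74 for Ryr3, 0.67 for Itpr2, 0.75 for Stim2 and 0.77 for Orai2, and rho was 0.74, 0.42, 0.80 and 0.72. Their adjusted permutation p was at most 0.0304 for r, and for rho at most 0.0292 except for Itpr2 (0.334). Without PIO animals 14 and 15, r was 0.52, 0.36, 0.60 and 0.62. For the oligodendrocyte list, with 7 of 7 markers lower with PIO, r was 0.69, 0.57, 0.49 and 0.65, with adjusted permutation p of 0.0304, 0.0872, 0.176 and 0.0305, and rho was 0.54, 0.36, 0.53 and 0.60, none passing. For the striatal list, r was -0.68, -0.67, -0.61 and -0.63 (adjusted permutation p of 0.0305, 0.0305, 0.0580 and 0.0392), rho was -0.59, -0.44, -0.38 and -0.46, none passing, and r was between -0.30 and -0.23 without PIO animals 14 and 15. With the subfield list mean as a covariate, the difference between the diets was 0.10 (SE 0.054) for Stim2 and 0.029 (SE 0.061) for Orai2. It was 0.020 (SE 0.040) for Itpr2 and -0.15 (SE 0.053) for Ryr2. None of these differences had a limma adjusted p under 0.05. For the vascular list, r was -0.74 for Fkbp1a, -0.65 for Ryr3 and 0.66 for Stim1 (adjusted permutation p of 0.00861, 0.0305 and 0.0305). Their rho was -0.65, -0.52 and 0.63, none passing, and r was -0.50, -0.38 and 0.34 without PIO animals 9 and 10. Fkbp1a also had r of 0.65 and rho of 0.68 with the oligodendrocyte list (adjusted permutation p of 0.0316 and 0.0502). The share of each region and cell type in the samples was not measured, and its part in these values was not tested further.

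**Figure D4:**
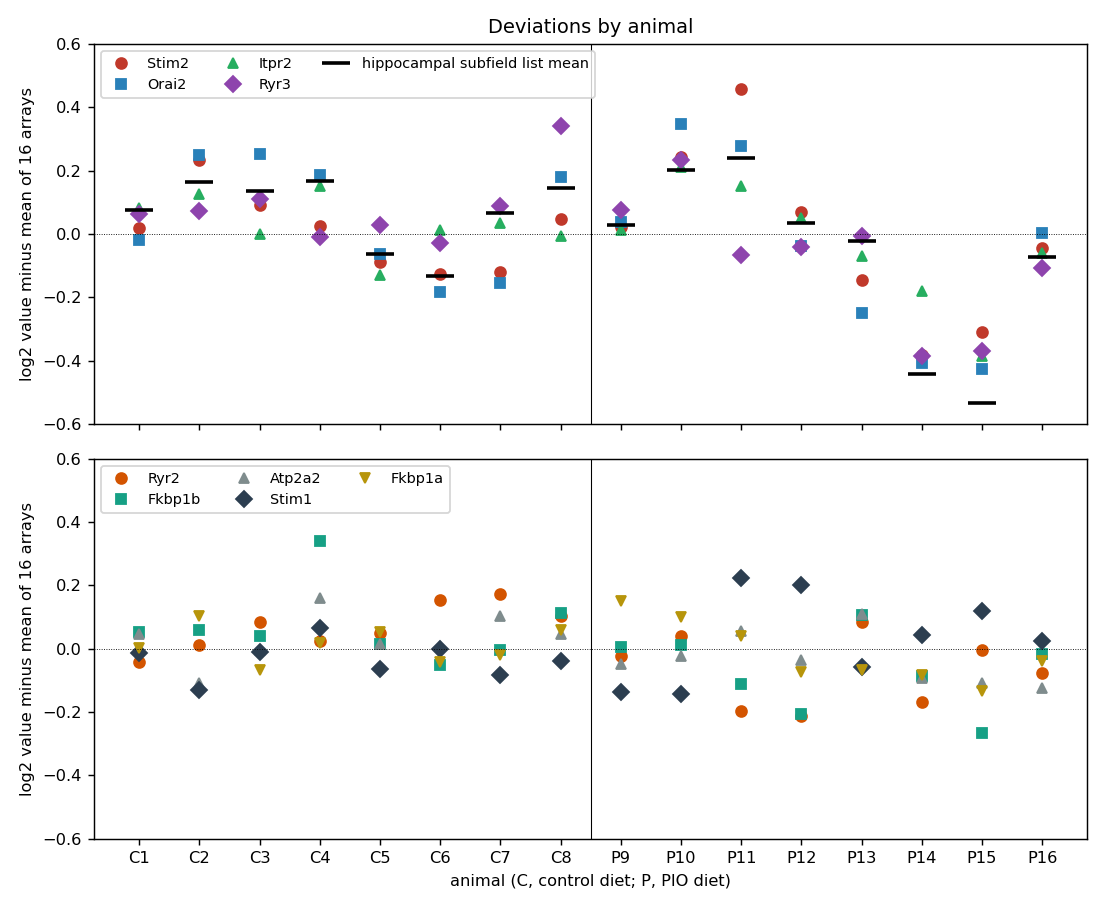
Log2 value minus the mean of all 16 arrays (vertical axes) for each animal (horizontal axis; C, control diet; P, PIO diet). Upper panel, Stim2, Orai2, Itpr2 and Ryr3 with the mean of 8 hippocampal subfield markers as black bars; lower panel, Ryr2, Fkbp1b, Atp2a2, Stim1 and Fkbp1a. In the upper panel PIO animals 14 and 15 are low for the list mean (-0.44 and -0.53) and for all 4 genes. In the lower panel Fkbp1a, Fkbp1b and Atp2a2 also lie below 0 in both animals, and Stim1 above it.

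Since Stim2 and Orai2 varied together, their promoters were compared. Both genes also followed the subfield list mean (r of 0.89 and 0.88), and a part of the promoters in the shared variation was not tested. The window was the 250 bases before the start of each gene from RefSeq, build GRCm38.p6. Capitals mark matches on either strand to the GC box (GGGCGG) or the E-box (CACGTG). Stim2 lies on the plus strand at chr5:53998273-53998522 and Orai2 on the minus strand at chr5:136170657-136170906, each written 5′ to 3′ along its gene.
Stim2: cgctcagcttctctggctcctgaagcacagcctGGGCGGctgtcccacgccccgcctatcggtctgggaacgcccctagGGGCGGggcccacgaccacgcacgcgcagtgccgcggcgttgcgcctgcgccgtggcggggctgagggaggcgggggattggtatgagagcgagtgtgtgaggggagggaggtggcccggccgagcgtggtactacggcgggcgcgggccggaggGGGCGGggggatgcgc
Orai2: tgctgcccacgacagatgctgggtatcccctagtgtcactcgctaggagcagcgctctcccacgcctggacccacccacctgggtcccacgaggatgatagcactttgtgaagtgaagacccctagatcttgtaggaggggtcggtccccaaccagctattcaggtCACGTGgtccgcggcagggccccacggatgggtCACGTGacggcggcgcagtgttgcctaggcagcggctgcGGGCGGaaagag
The Stim2 window held 3 GC boxes and no E-box, and the Orai2 window 1 GC box and 2 E-boxes. A GC box was in 32.7% and an E-box in 6.02% of all 32851 promoter windows of this length. Neither window held the full PPAR-RXR direct repeat, a pair of AGGTCA half-sites facing the same way with 1 base between them, found in 0.0335% of windows, or the cAMP response element TGACGTCA, found in 1.55%. These 2 motifs were also not found in the windows of Ryr2, Fkbp1a, Fkbp1b, Itpr2 and Stim1, the other members with a promoter in the table, 7 of 10 in all. No bases were shared by matches to different motifs.

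The genes most like the members between animals were named by Pearson r over the 16 arrays with the group means taken off, as the highest over all other genes tested, so that r is a description. For Ryr2 they were Ogt (r = 0.87), Dync2h1 (0.79) and Rtel1 (0.78). For Ryr3 they were Slc26a4 (0.91), Gfra1 (0.89) and Shisa6 (0.88). For Fkbp1b they were Cct5 (0.91), Atg4b (0.89) and Phospho2 (0.87).

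The rest of the pathway was counted from 67 listed genes, of which 56 were tested. None passed an adjusted p of 0.05, and 3 had an unadjusted p under 0.05 in limma, 2 higher and 1 lower with PIO, against 7.00% of all genes. A lower mean with PIO was found in 33 of the 56, and in 47.3% of all genes tested. The release channel list, which holds the third ryanodine receptor gene Ryr1 and partners of the channels, had a lower mean in 10 of 11 tested genes with none under 0.05 and a median of -0.055. Without Ryr1 (-0.12, SE 0.12), 9 of 10 partners were lower, and the higher one was the junctophilin gene Jph4 (0.020, SE 0.066). The smallest p was that of Asph (-0.07, SE 0.046), which makes junctin and related store proteins. Among 11 other FKBP genes, 5 were lower, with a median of 0.0045 and the smallest p for Fkbp14 (-0.11, SE 0.090), an endoplasmic reticulum folding enzyme.

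In IP3 signalling, 7 of 12 genes were lower, with a median of -0.039. Ahcyl1, whose product binds the IP3 receptor and competes with IP3, differed by -0.10 (SE 0.047, limma adjusted p = 0.699). Of the other pump genes, 2 of 4 were tested, and Atp2a3, which encodes another SERCA pump, differed by 0.18 (SE 0.069, limma adjusted p = 0.681). Among calcium-binding and folding proteins of the store lumen, 7 of 11 were higher, with a median of 0.055. Rcn1, a calcium-binding reticulocalbin, differed by 0.32 (SE 0.099, limma adjusted p = 0.600). Other genes of store-operated entry were lower in 4 of 5 cases with a median of -0.032, led by Orai3 (-0.05, SE 0.080), a further channel subunit. Leak and related genes were lower in 2 of 4, with the smallest p for Sec61a1 (-0.03, SE 0.042), a subunit of the translocon.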

How the data were processed

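The deposited table gives log2 values for every probe set on each array, the scale being read from their range (0.33 to 16.6). MAS5, GCRMA and R 2.7.1 are named with no role, per the submitters' processing notes; the method behind the values and a genome build are not given in the sources used here. The values were used as deposited. Of 45101 probe sets, 64 controls were left out, 34945 had 1 gene symbol, 932 several and 9160 none here. Probe sets with a mean above the 40th percentile were kept, and the one with the highest mean stood for its gene. Levels of different probe sets are not comparable. PIO against control (8 and 8 arrays) was fitted by limma 3.58.1 (lmFit, then eBayes; R 4.3.3) with a single term for diet over 12266 genes, and again over 45037 probe sets without a filter. The fit was tested on simulated data. Exact permutation tests were two-sided over 12870 arrangements, the smallest p being 1.55e-04. Correlations used 100000 resamples, two-sided.

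The members and lists were chosen with earlier results of these data known. Named genes were all members, the genes under an unadjusted p of 0.05 in each list (at most 3, otherwise the one with the smallest p) and the 3 most similar genes to Ryr2, Ryr3 and Fkbp1b. The rule also held Itpr1, which was not analysed here. Pairs of members and relations to marker lists were added after the values were seen. The array description ends in a code whose meaning is not given here; its most frequent class holds 5 control and 6 PIO arrays. Array numbers 1 to 6 hold 4 control and 2 PIO arrays, and 10 to 24 hold 4 and 6. Each array is a separately numbered subject, so the animal is the replicate. Precision is limited by how many arrays there are.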

Additional observations from a re-analysis of the deposited data

Results flagged for a closer look

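In 50 groups of 8 animals (25 probe sets above the filter, each in both diets), 6 had an animal far from the others, where chance alone would give about 5% of groups. Control animal 8 was the highest control on 2 Ryr3 probe sets, at 11.14 on 1427427_at (next 10.91) and at 8.364 on 1452533_at (next 8.02). Control animal 4 was the highest control for Fkbp1b, at 10.76 on 1449429_at (next 10.53), and for Atp2a2 on 1452363_a_at, at 13.08 (next 12.93). Control animal 3 was the lowest control for Atp2a2 on 1437797_at, at 6.667 (next 6.93). PIO animal 14 was the lowest PIO animal for Stim1 on 1436945_x_at, at 5.999 (next 6.16).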

How the results depend on the processing

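No gene had an adjusted p under 0.05 under any setting run. The count of members with an unadjusted p under 0.05, 2 in the report, was 1 (Ryr2, with Fkbp1b lost) with a common median, with the array number range as a block, with a covariate for the choroid plexus, striatal or subfield list mean, after leaving out PIO animals 14 and 15, and 0 in arrays of the most frequent description code. It was 3 with the description code as a block, a trended and robust prior or array weights, each adding Ryr3, and in arrays numbered 10 to 24, with Ryr2, Ryr3 and Stim1. With 1 animal left out it ran from 1 to 3, and was 1 on leaving out control 4, control 8, PIO 11, PIO 12 or PIO 15, each alone. Ryr2, Ryr3, Fkbp1b and Stim1 kept their direction in every setting run, but within arrays numbered 1 to 6 alone, not run as a setting, Ryr3 and Stim1 had the opposite direction. Ryr2 ran from -0.16 to -0.12, Ryr3 from -0.21 to -0.12, Fkbp1b from -0.17 to -0.10, Stim1 from 0.042 to 0.094, Itpr2 from -0.10 to -0.018, Orai2 from -0.17 to -0.059, Fkbp1a from -0.050 to -0.0091 and Atp2a2 from -0.086 to -0.048 with 1 animal left out.

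Of the others, 5 changed sign under some setting, and the cause was not tested. Stim2 was 0.0079 as the mean of all kept probe sets, 0.018 in arrays of the most frequent description code, 0.023 with the array number range as a block, 0.012 in arrays numbered 10 to 24, 0.056 with the striatal and 0.105 with the subfield covariate, 0.090 without PIO animals 14 and 15, and -0.088 to 0.032 with 1 animal left out. Fkbp1a was 0.013 without probe sets of shared sequence, 0.0012 in the most frequent code, 0.0024 with the striatal and 0.0068 with the subfield covariate and 0.0055 without PIO animals 14 and 15. Itpr2 was 0.011, 0.020 and 0.015 in the most frequent code, with the subfield covariate and without PIO animals 14 and 15. Orai2 was 0.029 and 0.0078 under the last 2, and Atp2a2 0.0038 in the most frequent code. Leaving out PIO animals 14 and 15 and the subfield covariate were chosen after seeing the data. No paired analysis was possible because the groups share no subject number. The number of arrays and the lack of detection calls limit the dim probe sets.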
